A study of Mus musculus with 15 samples.

Results

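The chromatin described here is that of L-EPSCs, mouse expanded potential stem cells in one of the 2 published culture conditions, and the regions are the broad peaks of H3K4me1 and of H3K27ac called in these cells. The 2 lists held 132272 peaks, 105306 of H3K4me1 and 26966 of H3K27ac, out of 439369 peaks in the 6 lists of the series. Each peak was placed in a class by whether at least 1 bp of it overlapped a peak of the other mark. L-EPSCs had been converted from J1 embryonic stem cells of strain 129SV and were kept on feeder cells or gelatin, and per the study's methods without feeders for several passages before ChIP-seq. Their medium held KSR (20%), LIF (1000 units/mL), CHIR99021 (3 µM), PD0325901 (1 µM), A-419259 (0.3 µM), XAV939 (5 µM), JNK inhibitor VIII (4 µM) and SB203580 (10 µM). These compounds inhibit GSK3, MEK, SRC family kinases, tankyrase, JNK and p38 in that order. ChIP-seq had 2 samples per mark and 1 input, but 1 peak list per mark was analysed, so no value below has a replicate check and no test was run. Read depth is unknown from these lists, and it affects how many peaks are called and how wide they are. Peaks come from many cells of 1 line together, so a mark in fewer cells and a weaker mark in all of them cannot be told apart.

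H3K4me1 is the monomethyl mark on lysine 4 of histone H3, placed largely by MLL3 and MLL4 (Kmt2c and Kmt2d) at enhancers and on the shoulders of promoters. H3K27ac is the acetyl mark on lysine 27, placed by p300 and CBP at active enhancers and active promoters. Enhancers with H3K4me1 and no H3K27ac are usually called primed, and those with both are called active. At active start sites H3K4me1 is known to give way to trimethylation, a mark that was not among the regions analysed here.

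Shown first are 300 bases from each of 5 regions that recur below, taken as close as possible to the middle of the region and outside annotated exons, with every CG pair in capitals. They come from the mm9 genome sequence (NCBIM37). The Esrrb and Pou5f1 windows lie in the longest stretch under both marks of each co-marked domain, the Dyrk1a window in the second widest H3K4me1 peak without H3K27ac, and the last 2 in wide H3K27ac peaks without H3K4me1.
Esrrb co-marked stretch, chr12:87843715-87844014, plus strand: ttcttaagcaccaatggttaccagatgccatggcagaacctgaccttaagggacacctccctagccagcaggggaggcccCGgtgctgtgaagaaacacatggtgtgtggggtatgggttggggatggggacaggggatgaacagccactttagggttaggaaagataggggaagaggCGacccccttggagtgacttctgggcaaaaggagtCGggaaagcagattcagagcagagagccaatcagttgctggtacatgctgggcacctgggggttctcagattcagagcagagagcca
Pou5f1 co-marked stretch, chr17:35639172-35639471, plus strand: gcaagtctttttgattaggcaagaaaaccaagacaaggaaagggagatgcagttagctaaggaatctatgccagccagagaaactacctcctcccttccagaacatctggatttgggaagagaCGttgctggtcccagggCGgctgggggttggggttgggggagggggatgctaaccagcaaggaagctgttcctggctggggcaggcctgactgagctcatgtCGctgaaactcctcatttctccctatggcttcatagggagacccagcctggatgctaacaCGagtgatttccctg
Dyrk1a H3K4me1 peak, chr16:94804490-94804789, plus strand: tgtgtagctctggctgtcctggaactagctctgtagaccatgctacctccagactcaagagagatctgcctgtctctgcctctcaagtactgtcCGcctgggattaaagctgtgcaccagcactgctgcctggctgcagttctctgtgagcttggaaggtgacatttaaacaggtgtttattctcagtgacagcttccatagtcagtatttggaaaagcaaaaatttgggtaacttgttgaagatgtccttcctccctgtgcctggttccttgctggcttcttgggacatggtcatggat
Kdm6a H3K27ac peak, chrX:17740574-17740873, plus strand: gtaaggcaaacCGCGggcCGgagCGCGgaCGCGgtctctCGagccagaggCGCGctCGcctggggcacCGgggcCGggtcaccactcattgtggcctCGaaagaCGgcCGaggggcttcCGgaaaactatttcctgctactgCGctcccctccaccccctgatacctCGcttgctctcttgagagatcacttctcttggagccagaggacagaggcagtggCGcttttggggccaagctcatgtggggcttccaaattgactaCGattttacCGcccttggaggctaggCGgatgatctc
Mll3 H3K27ac peak, chr5:25004948-25005247, plus strand: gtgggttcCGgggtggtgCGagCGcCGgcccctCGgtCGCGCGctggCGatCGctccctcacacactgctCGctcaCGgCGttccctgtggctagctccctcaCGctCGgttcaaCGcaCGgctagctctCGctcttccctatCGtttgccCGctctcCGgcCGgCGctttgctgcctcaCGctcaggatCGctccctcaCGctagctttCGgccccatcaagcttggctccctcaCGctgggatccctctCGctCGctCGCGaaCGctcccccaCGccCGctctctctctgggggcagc
The Esrrb window lay in an intron and held 3 CG pairs, and the Pou5f1 window lay outside genes, 3511 bp from the start site, and held 4. The intronic Dyrk1a window held 1. The Kdm6a window, in the gene 873 bp from its start site, held 23 CG pairs, and the Mll3 window, 347 bp from the start site and outside the gene, held 35. GC content was 55.3% at Esrrb, 53.7% at Pou5f1, 49.0% at Dyrk1a, 62.0% at Kdm6a and 68.7% at Mll3.

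Peaks that carried both marks were wider than those with 1 mark. The 18837 H3K4me1 peaks that met H3K27ac had a median width of 2650 bp (quartiles 1517 and 4499 bp), and the 86469 without it had a median of 916 bp (539 and 1525 bp). The 23554 H3K27ac peaks that met H3K4me1 had a median of 833 bp (449 and 1631 bp), and the 3412 without it had a median of 416 bp (275 and 641 bp). No H3K27ac peak without H3K4me1 was wider than 2451 bp, whereas 136 of those with it were at least 10 kb wide. Among H3K4me1 peaks of at least 5 kb, 3962 carried H3K27ac and 1014 did not.

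Each list was also cut by width into 10 groups of equal size. The share of H3K4me1 peaks with H3K27ac was 2.15% in the narrowest group (215 to 362 bp), 8.97% in group 5 (863 to 1065 bp) and 66.9% in the widest (3376 to 67629 bp). For H3K27ac peaks the share with H3K4me1 was 73.0% in the narrowest group and 100% in the widest, where 2696 of 2696 peaks met H3K4me1. A wider peak has more bases with which to meet another, and the part of this in the rise was not tested.

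**Figure D1:**
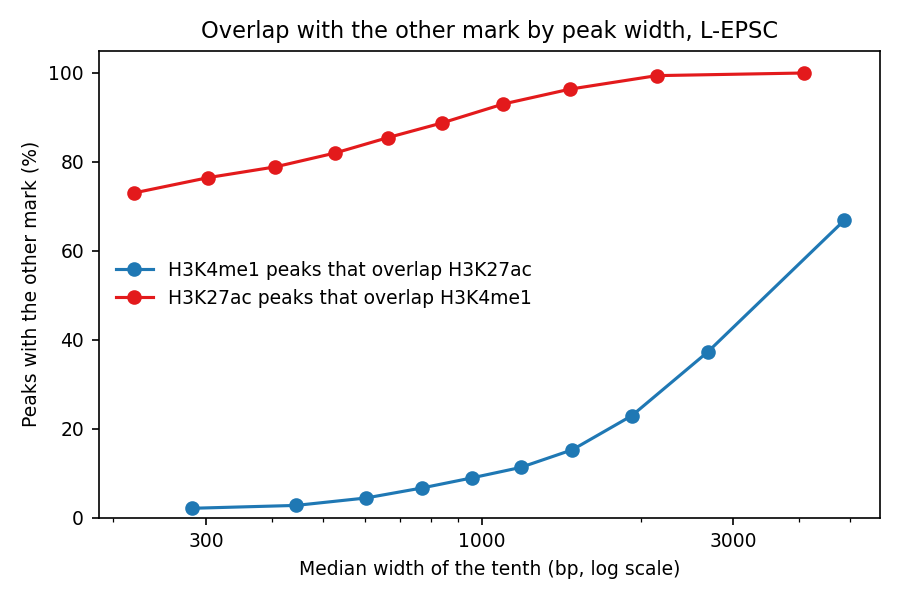
Share of peaks that overlap the other mark by at least 1 bp (y axis, percent) against the median width of each of 10 equal groups of a list (x axis, bp, log scale), for H3K4me1 peaks in blue and H3K27ac peaks in red. The H3K4me1 line climbs from 2.15% to 66.9%, and the H3K27ac line from 73.0% to 100%.

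In covered bases, 28.6 Mb lay under both marks, which was 16.5% of the H3K4me1 bases and 83.5% of the H3K27ac bases. Co-marked H3K4me1 peaks made up 39.4% of the H3K4me1 bases. H3K27ac mostly sat within H3K4me1. Of the co-marked H3K27ac peaks, 69.9% (16453) lay wholly inside 1 H3K4me1 peak, and 96.1% met only 1. The reverse arrangement, an H3K4me1 peak wholly inside an H3K27ac peak, was found for 616 of 18837 peaks (3.27%). Most co-marked H3K4me1 peaks held 1 H3K27ac peak (79.6%), 14.6% held 2 and 5.87% held 3 or more. The highest number was 14, in the peak over Trim71.

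A minority of H3K27ac peaks was flanked instead, with H3K4me1 on both sides and none at the centre. These were 624 peaks, of which 77.9% lay within 1 kb of a protein-coding start site, against 16.3% of the other 22930 co-marked H3K27ac peaks. Distance to start sites also differed between single-marked classes. Within 1 kb of a start site lay 46.3% of H3K27ac peaks without H3K4me1, 17.9% of those with it, 26.9% of H3K4me1 peaks with H3K27ac and 16.2% of those without. Over 50 kb from any start site lay 21.4%, 26.3%, 24.97% and 31.2% of these classes, in the same order.

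The share of H3K27ac peaks that lacked H3K4me1 was 17.8% for peaks over a start site, 40.9% for peaks that ended 1 bp to 1 kb from one, and 6.43%, 8.01% and 10.5% at 1 to 5 kb, 5 to 50 kb and over 50 kb. Being without overlap did not mean being far from H3K4me1. The median gap from a lone H3K27ac peak to the nearest H3K4me1 peak was 317 bp (quartiles 145 and 1575 bp), and 69.0% lay within 1 kb. Of all H3K27ac peaks, 1059 were over 1 kb from H3K4me1, and 16 of these lay within 1 kb of a start site. Lone H3K4me1 peaks were much farther from H3K27ac, with a median gap of 24171 bp and 69.1% of them over 10 kb away. The lists differ in length, with 26966 peaks of H3K27ac and 105306 of H3K4me1, and the part of this in the gaps was not tested.

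H3K4me1 lay on both sides of start sites that carried H3K27ac. At the 3893 start sites with an H3K27ac peak on the first base, 23.9% had H3K4me1 there. H3K4me1 coverage of these sites reached 81.5% at 750 bp upstream and 85.4% at 1200 bp downstream, with its low point of 23.1% at 100 bp downstream. It was 23.0% at 5 kb upstream and 34.3% at 5 kb downstream, so coverage at that distance was higher downstream. Any H3K4me1 peak at a position counts here, also one separate from that at the start site. At the 2547 start sites with H3K27ac within 1 kb but not on the first base, the crests were 74.6% at 550 bp upstream and 84.3% at 1150 bp downstream, around a low of 28.7%. The 15910 start sites with no H3K27ac within 1 kb had lower and flatter coverage, 36.3% at 300 bp upstream, 34.0% on the first base and 39.6% at 700 bp downstream.

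**Figure D2:**
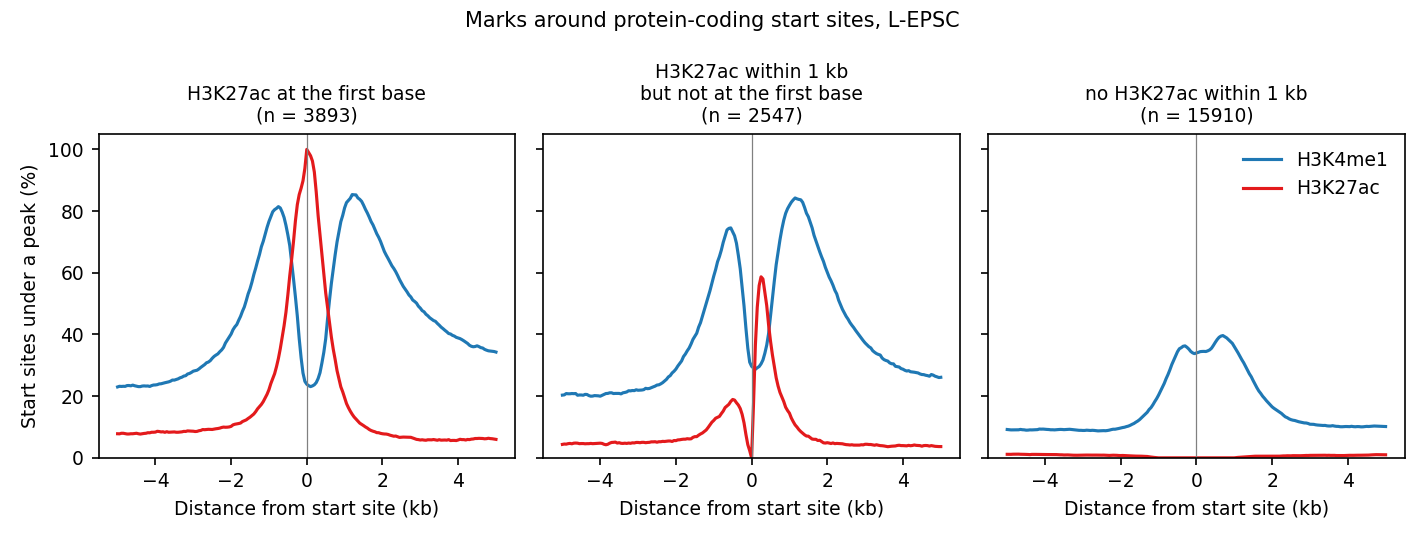
Percent of protein-coding start sites under an H3K4me1 peak (blue) or H3K27ac peak (red) at each position from 5 kb upstream (negative, x axis in kb) to 5 kb downstream, in 3 panels by where H3K27ac lies. H3K27ac was used to form the panels and its curve shows that choice. H3K4me1 dips to 23.1% in the first panel between crests of 81.5% and 85.4%, and stays between 33.8% and 39.6% from the upstream to the downstream crest in the last.

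The wide H3K4me1 peaks without H3K27ac often began just inside a gene. Of the 1014 that were at least 5 kb wide, 28.8% (292) did not cover a start site and had an edge within 2 kb downstream of one, and 2.07% (21) had an edge within 2 kb upstream. For the 85455 narrower ones these shares were 6.94% and 5.11%. The nearest start site had H3K27ac within 1 kb for 241 of the 292 (82.5%), against 44.3% for the narrower lone peaks that began downstream. Wide H3K4me1 peaks with H3K27ac also had an edge downstream more often than upstream, 12.6% against 4.24% of 3962, and 86.8% of those start sites had H3K27ac. Among the 5 widest H3K4me1 peaks without H3K27ac were those of Phf17 (27343 bp), Dyrk1a (23584 bp), Gpbp1 (18280 bp) and Ywhae (17880 bp), each wholly within its gene. Dyrk1a encodes a kinase and Ywhae a 14-3-3 adaptor. At Dyrk1a (chr16:94792848-94816431) the peak began 1231 bp from the start site, at Gpbp1 1447 bp and at Ywhae 1240 bp. The Phf17 peak lay 10445 bp from the start of the gene as annotated, but 1299 bp from the 5′ end of a coding transcript.

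Joining overlapping peaks of both marks gave 17869 co-marked domains, which covered 72.2 Mb and had a median width of 2930 bp. A median of 32.8% of a domain lay under both marks. Of the domains, 75.4% were 1 peak of each mark, 1073 were at least 10 kb wide and 148 at least 20 kb. A gene start lay in 19.9% of all domains, in 30.8% (331) of those of at least 10 kb and in 42.6% (63) of those of at least 20 kb. A wider domain has more bases in which a start can lie, and the part of this in the rise was not tested.

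Which domains are widest depended on how peaks were joined, since 7 of the 15 widest stayed among the 15 when peaks of a mark within 1 kb were joined first. As deposited, the widest domain covered the body of Ski, which encodes a co-repressor of TGF-beta signalling. It was 67629 bp wide (chr4:154527920-154595548), stayed 1153 bp clear of the start site, and was 1 H3K4me1 peak with 7 H3K27ac peaks that together covered 28938 bp of it. The next, over Trim71, a stem cell RNA-binding protein and ubiquitin ligase, was 53977 bp wide (chr9:114416477-114470453) with 14 H3K27ac peaks and 15433 bp under both marks. Its H3K27ac was thus spread over many short peaks.

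Esrrb, an orphan nuclear receptor of the naive pluripotency network, had the third widest domain (52772 bp, chr12:87803340-87856111). It had more bases under both marks than any other domain, 43931 bp or 83.2% of its width, in 4 H3K27ac peaks. The domain lay 101273 bp from the start of the gene as annotated and held the 5′ end of 1 coding transcript. The annotated gene start itself had neither mark within 1 kb. The window printed above comes from the middle of the longest doubly marked stretch there, which was 17975 bp.

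Sall1, a zinc finger transcription factor, had a domain of 49484 bp (chr8:91523212-91572695) over its start site with 35123 bp under both marks, most of it outside the gene. Tet1, which oxidises 5-methylcytosine, had one of 46428 bp (chr10:62325775-62372202) over its start site with 14387 bp under both. Myo10, an unconventional myosin, had 43322 bp with 32055 bp under both, deep in the gene, 50554 bp from the nearest gene start (that of Fam134b) but over 6 coding transcript 5′ ends. Etnk1, an ethanolamine kinase, had 43047 bp. Alpl, the alkaline phosphatase long used as a stain for pluripotent colonies, had 40982 bp in which 11 H3K27ac peaks lay.

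The domains ranked 9 to 14 were 40631 to 36728 bp wide. They lay over Slc25a13, BC032203, Ccdc88c, Zfp462 and Pitpnc1 and, outside genes on chromosome 18, 57611 bp from the start of Zfp236. The share under both marks varied widely among these 14, from 83.2% at Esrrb and 76.5% near Zfp236 to 28.6% at Trim71 and 25.9% at Ccdc88c. The ranks by width and by bases under both marks differed, and 7 of the 15 widest were also among the 15 with the most bases under both marks.

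**Figure D3:**
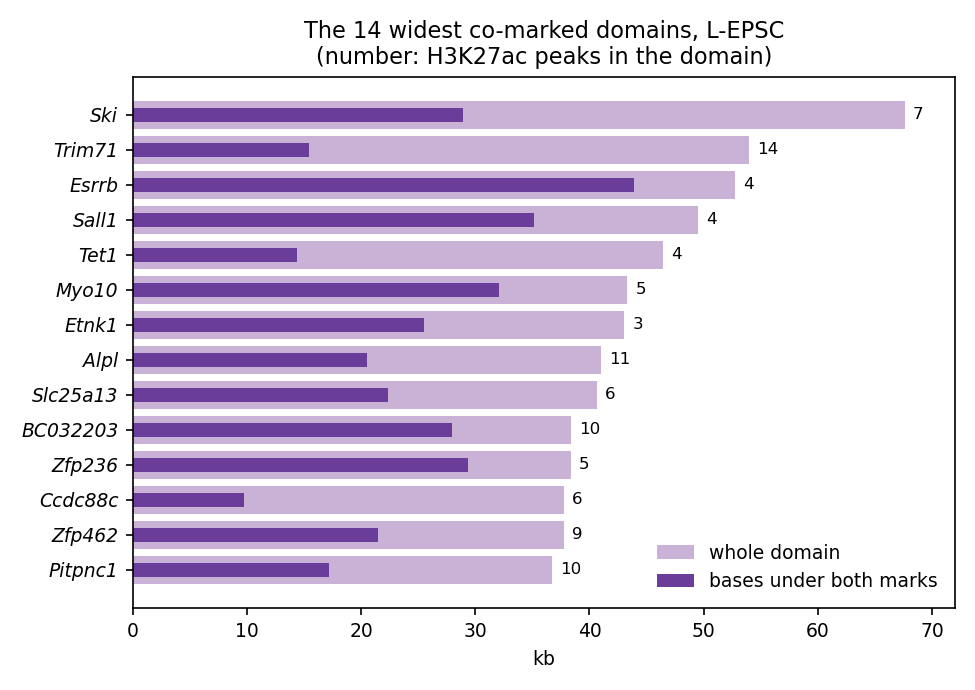
Width of the 14 widest co-marked domains (pale bars, kb) and the bases in each under both marks (dark bars, kb), named by the gene that covers most of the domain or else by the nearest start site. The number at each bar counts its H3K27ac peaks. Esrrb has the longest dark bar (43931 bp), and Ccdc88c the shortest (9775 bp).

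The widest H3K27ac peaks without H3K4me1 were all under 2.5 kb, and 3 of the 5 covered a gene start. These were at Sp3 (2451 bp, chr2:72816679-72819129, where the annotation also has Gm11084), Kdm6a (2140 bp, chrX:17739098-17741237) and Mll3 (2092 bp, chr5:25003745-25005836). Sp3 is a GC box transcription factor. Mll3 is the older name of Kmt2c, the H3K4 monomethyltransferase, and Kdm6a encodes an H3K27 demethylase that belongs to the same complex. The other two lay in Gpr1 (2151 bp, 16743 bp from the nearest start site) and outside genes, 103848 bp from the start of Rpl36-ps3 (2215 bp).

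Across all 22350 protein-coding start sites, 28.5% had both marks within 1 kb, 39.5% had H3K4me1 only, 0.277% (62) had H3K27ac only and 31.7% had neither. On the first base itself the order changed, with both marks at 4.16%, H3K4me1 only at 27.6% and H3K27ac only at 13.3% (2964). The gene lists below are read against these shares, as counts with no test. The shares hold for start sites only. None was computed over all genes for the gene and 10 kb on each side, so counts over that span have no background. A co-marked domain of at least 10 kb came within 1 kb of 2.36% of all start sites.

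Genes of pluripotency had both marks at 18 of 24 start sites, and at 13 of 24 a domain of at least 10 kb came within 1 kb. Among those with a domain at the start site, the median width was 11306 bp over 19 pluripotency genes and 3273 bp over the 5176 such start sites of all genes. Pou5f1, which encodes OCT4, had a 16218 bp domain (chr17:35632359-35648576) with 12166 bp under both marks. Its partner Sox2 had 21479 bp (chr3:34535926-34557404), but only 5033 bp of it under both, and its first base had H3K27ac only. Nanog had 11235 bp (chr6:122648043-122659277) with 8714 bp under both.

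Other members showed the same range from wide to thinly acetylated. Zfp42 (REX1) had a 23778 bp domain, Sall4 one of 21508 bp, Tbx3 one of 18289 bp and the growth factor gene Fgf4 one of 11507 bp. Dppa5a was the most fully co-marked of the list, with 11972 of 12299 bp under both marks. Klf4 had a 9915 bp domain with only 1080 bp under both. Tfap2c, Lin28a, Dppa3, Nr0b1 and Nr5a2 had H3K4me1 only within 1 kb of the start site, and no base of H3K27ac was found in the gene and 10 kb on each side of it at Dppa3 and Nr0b1. At Nr5a2 a 9900 bp domain with 7331 bp under both marks still came within 1 kb of the start site. Tfap2c had one of 11767 bp with 772 bp under both. In these domains H3K27ac itself stayed farther off.

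Genes of the formative and primed epiblast had both marks at 3 of 15 start sites, those of Nodal, Lefty1 and Zic5, and H3K4me1 only at 10. Fgf5, Pou3f1, Sox3, Foxd3, T and Dnmt3b had H3K4me1 and no H3K27ac anywhere in the gene and 10 kb on each side. Otx2 (10400 bp) and Lefty2 (12654 bp) had a wide domain that came within 1 kb of the start site, while H3K27ac itself stayed farther off.

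The later lineage regulators carried H3K4me1 without H3K27ac. Of 15, among them Pax6, Neurog2, Olig2, Nkx2-5, Myod1 and Isl1, 14 had H3K4me1 only at the start site and Gata1 had neither. None of the 15 had a base of H3K27ac in the gene and its flanks, a count with no share over all genes beside it. At 13 of 15 the H3K4me1 peak covered the first base, where H3K27ac-marked start sites usually lacked it. Pax6 had 28.7 kb of H3K4me1 in its locus, and Nkx2-2 13.1 kb. At the start site Hox genes were much alike, with H3K4me1 only at 34 of 40 entries, neither mark at 4 and both at 2. Their loci were less so, since 31 of 40 had no H3K27ac in the gene and its flanks. Loci of neighbouring genes in a cluster can overlap, so 1 H3K27ac peak can count in several of them. The most under both marks in 1 Hox locus was 4.65 kb.

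Trophoblast genes had H3K4me1 only at 11 of 14 start sites, Cdx2, Eomes, Gata3 and Hand1 included, and neither mark at Elf5, Krt7 and Plac1. None had both. H3K27ac lay elsewhere in the loci of Tfap2a (3.57 kb in total), Tead4 (1.72 kb), Gata3 (0.501 kb), Eomes (0.491 kb) and Hand1 (0.347 kb), all of it also under H3K4me1. Primitive endoderm genes had both marks at 2 of 14, the neighbours Col4a1 and Col4a2, which share a start region and 1 domain of 7583 bp, and H3K4me1 only at 8, Gata6 and Sox17 among them. Gata4 had neither at the start site.

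The 8 genes of the 2-cell-like state that were found had neither mark at the start site, and none had H3K27ac in its locus. They included Zscan4c, Zscan4d, Zscan4f, Zfp352 and Duxf3. Several have near-identical copies, to which short reads cannot be assigned with certainty, so a missing peak there is uncertain. The paper, from signal tracks, describes more H3K27ac near the promoters of some of them in EPSCs than in embryonic stem cells. It names Zscan4c, Zscan4d and Zscan4f among these. The peak lists hold no signal, so the lack of a peak does not show that H3K27ac was absent. Olfactory receptor genes, which stand for silent chromatin, had neither mark at 1094 of 1113 start sites and both at 1, Olfr913.

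Fibroblast genes, which would mark remaining feeder cells, had both marks at 1 of 14 start sites, that of Fn1, with a 12508 bp domain. The list had H3K4me1 only at 8 and neither mark at 5. No H3K27ac was found in the gene and flanks of 11 of the 14, and besides Fn1 it lay at Col1a1 (1.89 kb) and Col3a1 (1.03 kb). Of 7 markers of pluripotent cells, Pou5f1, Sox2, Nanog, Zfp42, Klf4 and Tfcp2l1 had both marks, and Esrrb, whose domain lies inside the gene, had neither at its annotated start.

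Genes that every cell uses had both marks at 11 of 14 start sites, a share like that of pluripotency genes, but their domains were narrower, with a median of 5695 bp over 10. Gapdh (12888 bp), Ppia (11575 bp), Actb (11207 bp) and Hsp90ab1 (10844 bp) passed 10 kb. At Rplp0 only 17 bp of the 5269 bp domain lay under both marks, and at Polr2a 122 of 2198 bp.

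Pathways on which the medium acts were marked at intermediate rates. Wnt pathway genes had both marks at 7 of 16 start sites, and Tcf7l1, which represses Wnt targets, had the most bases under both marks in the gene and flanks of the list (25.3 of 182.9 kb, with a domain of 8721 bp at the start site). The tankyrase genes Tnks and Tnks2 had both marks, and the Wnt targets Lef1, Sp5, Nkd1, Lgr5 and Cdx1 had H3K4me1 only with no H3K27ac in the locus. Axin2 had both marks within 1 kb but no base under both in its gene and flanks.

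Genes of FGF and ERK signalling had both marks at 9 of 16 start sites. Spry4 (18170 bp, 753 bp of it under both), Dusp6 (7062 bp) and Etv5 (6094 bp) had domains there, and the gene and flanks of Etv5, a target of the pathway, held 36.0 kb under both marks. Spry1, Dusp4 and Etv4 had H3K4me1 only. SRC, p38 and JNK genes had both at 8 of 14, with the widest domain at Src (11488 bp), and genes of LIF signalling at 6 of 11, with Socs2 (11224 bp), Socs3 (10745 bp) and Stat3 (7558 bp). Enzymes that write or erase the marks had both at 12 of 15. Kmt2c had H3K27ac only, and the first base had H3K27ac only at 8 of 15, Ep300 and Kdm1a among them.

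**Figure D4:**
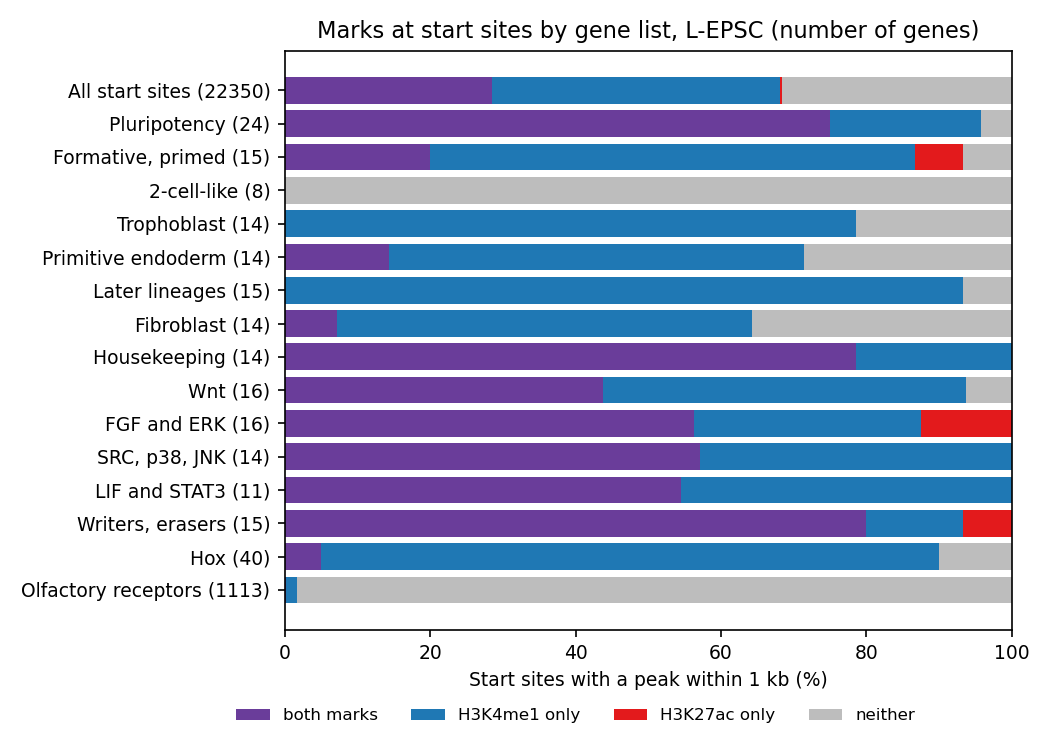
Percent of start sites in each gene list with a peak of both marks, H3K4me1 only, H3K27ac only or neither within 1 kb (stacked bars, number of genes in brackets), with all 22350 start sites on top. Both marks are found at 28.5% of all start sites, 75% of pluripotency genes and 78.6% of housekeeping genes, and at none of the trophoblast, later lineage or 2-cell-like genes.

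Co-marked domains lay in groups more often than lone H3K27ac peaks. Within 5 kb of another of their class lay 39.6% of domains, 57.1% of lone H3K4me1 peaks and 6.15% of lone H3K27ac peaks. Within the gap customary for stitching enhancers into super-enhancers, which is between 12 and 13 kb, these shares were 57.3%, 79.3% and 10.8%. The classes differ in number, with 1 member per 148 kb, 30.5 kb and 773 kb of genome, and the part of this was not tested. Stitching domains over gaps of up to that length gave 11055 clusters, of which 7622 were 1 domain and 440 held 5 or more. The top 5% of clusters (552) held 34.4% of the bases under both marks.

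The cluster with the most bases under both marks ran for 261 kb across Trim24 (chr6:37591669-37853103) with 31 domains and 78.7 kb under both. Trim24 encodes a chromatin reader. The others among the top 5 were at Sall1 (142 kb, 12 domains, 71.6 kb), Sik1, a salt-inducible kinase (104 kb, 9 domains, 53.5 kb), Zfp706 (162 kb, 22 domains, 51.3 kb) and Mettl11a, an N-terminal methyltransferase (130 kb, 13 domains, 51.1 kb). The named gene covered 6.41% to 12.4% of its cluster, so most of each lay outside the gene it is named by. By chromosome, domains ranged from 5.46 per Mb on chromosome 12 to 11.4 on chromosome 11 among autosomes, with a median of 7.04, and stood at 0.948 per Mb (158 domains) on chromosome X. Lone H3K4me1 peaks were at 9.80 per Mb on chromosome X against an autosomal median of 34.7, and lone H3K27ac peaks at 0.666 against 1.30.

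The printed H3K27ac windows lie near start sites and the other 3 farther away, so base composition was compared within each distance. Distance was that of the nearest edge of a peak, and the window was at its centre, which in a wide peak can lie farther off. Near start sites the median width was 425 bp for lone H3K27ac peaks and 2297.5 bp for H3K4me1 peaks with H3K27ac. The windows of the classes were thus not matched for distance. The central 300 bp of every peak at least that wide were examined, which for lone H3K27ac peaks were 1136 near start sites and 1244 farther away. A window was called CpG-rich when its GC content was at least 50% and its observed over expected CpG at least 0.6, which 0.836% of all 300 bp windows of the genome met. Within 1 kb of start sites, 93.4% of lone H3K27ac peaks were CpG-rich, 59.1% of H3K27ac peaks with H3K4me1, 17.9% of lone H3K4me1 peaks and 7.81% of H3K4me1 peaks with H3K27ac. Farther away the shares were 12.46%, 3.81%, 3.98% and 1.71%. The same share was 48.1% for the 22347 windows at start sites themselves. The median window of a lone H3K27ac peak near a start site held 32 CG pairs, against 15 at start sites and 2 in the genome. Over 1 kb away it held 3, against 3 to 4 in the other classes.

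**Figure D5:**
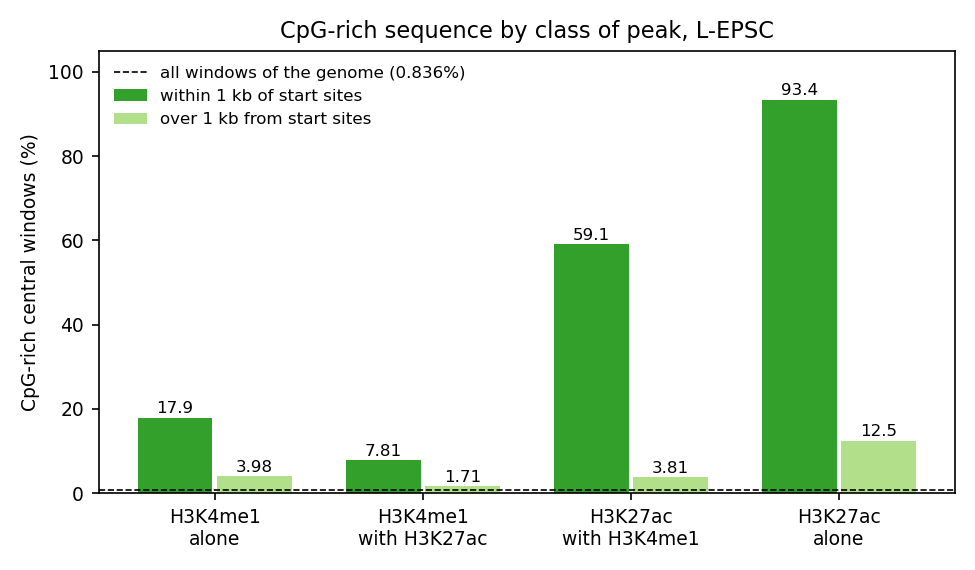
Percent of peaks whose central 300 bp window is CpG-rich (y axis), for each class, within 1 kb of start sites (dark bars) and farther away (pale bars), with the share of all windows of the genome as a dashed line. Lone H3K27ac peaks near start sites reach 93.4%, and every class away from them stays at or below 12.46%.

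Short motifs were counted in the same windows on both strands, with letters as given. Of 8518777 windows in the genome, 0.639% held TCAAGGTCA, the ESRRB motif, and 0.397% held GGGTGTGGC, a KLF motif. Over 1 kb from start sites, the ESRRB motif was in 2.21% of H3K4me1 peaks with H3K27ac, 2.005% of lone H3K4me1 peaks, 2.04% of H3K27ac peaks with H3K4me1 and 0.402% (5 of 1244) of lone H3K27ac peaks. The KLF motif was in 2.60% of lone H3K4me1 peaks, 1.11% of H3K4me1 peaks with H3K27ac, 0.944% of H3K27ac peaks with H3K4me1 and 2 of 1244 lone H3K27ac peaks. The octamer ATGCAAAT, read by OCT4, was in 1.98% of distal co-marked H3K4me1 peaks and 2.85% of distal lone ones, and in 1.68% and 1.13% of distal H3K27ac peaks with and without H3K4me1, against 2.62% of windows. AGGGGGCGC, the CTCF core, was in 0.563% (7 of 1244) of distal lone H3K27ac peaks, 0.420% of distal lone H3K4me1 peaks, 0.190% of H3K4me1 peaks with H3K27ac and 0.179% of H3K27ac peaks with H3K4me1, against 0.0585% of windows. Median GC content was 47.0% to 48.7% in the distal windows of the 4 classes and 41.7% in the genome, and the part of base composition in these shares was not tested.

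Another motif was common in the distal lone H3K27ac peaks. AAGATGGCG, the YY1 motif, was in 9.89% of them (123 of 1244), against 0.302% of all windows, 0.997% of distal H3K27ac peaks with H3K4me1 and 0.306% of distal lone H3K4me1 peaks. These 123 were found on all 20 chromosomes, 31.7% of them in genes, had a median GC content of 64.0%, and lay a median of 19232 bp from H3K4me1, against 1182 bp for the 1121 others. The 30 bases centred on the motif occurred a median of 609 times in the genome, and at least 10 times for 98 of the 123, so most lay in sequence that is present many times. Repeated copies were also found around this motif in the other distal classes. At least 10 copies were counted for 53.3% in H3K27ac peaks with H3K4me1 (median 15). The share was 46.5% in H3K4me1 peaks with H3K27ac (median 6.5) and 19.6% in lone H3K4me1 peaks (median 1). Around the KLF motif in distal lone H3K4me1 peaks the same 30 bases occurred once in 92.2%, and around the ESRRB motif in distal co-marked H3K4me1 peaks once in 91.1%. The filter on reads that align to many places was not given in the sources used here for ChIP-seq, and whether reads of other copies were placed at these peaks was not tested.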

How the data were processed

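ChIP-seq libraries of H3K4me1, H3K27ac and input from L-EPSCs were sequenced by the authors as paired-end reads. Per the study's methods and the submitters' processing notes, which also name Trim Galore 0.6.3, the authors aligned reads to mm9 with Bowtie2 2.3.5, handled them with SAMtools 1.10 and called broad peaks with MACS against input. The deposited files give 1 list of peak positions per mark. They hold no count, signal or p-value, and thresholds and the pooling of samples are not given in the sources used here.

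Positions were checked against NCBIM37 (mm9): no peak passed a chromosome end and none overlapped within a list. Start sites are the 5′ ends of 22350 protein-coding genes of GENCODE M1. Of 193 listed genes, 190 were found, some by older symbols. Coordinates are 1-based. Members, lists and classes were chosen with earlier results of these data known. Regions are named by rule: the 15 widest co-marked domains, the 5 widest lone peaks of each mark, the 5 stitched clusters with the most bases under both marks, each by the gene that covers most of it or else the nearest start site, and the listed genes. Some items that the rule names are not reported here. Of the olfactory genes 1 was named after its values were seen. The 14 motifs, the split of start sites by H3K27ac, the edges of wide peaks and the copies of 30 bases were chosen after the peaks were seen. The copy number of a sequence is that of its exact 30 bases on both strands. The genome file is not soft-masked, so no share of annotated repeats was computed. Alternatives changed the overlap that counts, the smallest peak, the start site window, the stitching gap and the sequence window. Functions for overlap and distance were tested on simulated data base by base. Python 3.11.15, numpy 2.4.6 and matplotlib 3.10.9 were used.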

Additional observations from a re-analysis of the deposited data

How the results depend on the processing

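The alternatives gave 75 values beside 18 main ones. Of these, 23 stayed within the interval of the main value (95% binomial, or within 1.5 times for a count), 52 moved and 0 reversed. A reversal was defined only for the ratios of median widths, so no share or count could be given that label. The order of 2 shares did change. Near a start site lay 46.3% of lone H3K27ac and 26.9% of co-marked H3K4me1 peaks, but 1.51% and 37.0% with a gap of at most 1 kb. Lists with 1 file per mark give only counting intervals, which are narrow for lists of this length.

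With overlap required over 50% of the peak in question, over 50% of both, or with a gap of at most 1 kb, the share of H3K4me1 peaks with H3K27ac was 6.22%, 4.71% and 23.4% (main 17.9%), that of H3K27ac peaks with H3K4me1 76.7%, 18.4% and 96.1% (main 87.3%), the ratio of median widths with over without the other mark 2.68, 2.63 and 2.52 for H3K4me1 (main 2.89) and 1.31, 3.39 and 1.86 for H3K27ac (main 2.00), lone H3K27ac peaks near a start site 55.9%, 24.04% and 1.51% (main 46.3%) and co-marked H3K4me1 peaks near one 16.7%, 11.5% and 37.0% (main 26.9%). Peaks of at least 500 bp gave 16.7% and 91.5% co-marked and width ratios of 2.56 and 1.70, the widest 50% of each list 20.1% and 89.3%, and joining over 1 kb 19.2% and 89.995% with a ratio of 3.35 for H3K4me1.

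The widest 50% left 10013 domains, and joining over 1 kb gave 1627 of at least 10 kb and kept 7 of the 15 widest, as did ranking by bases under both marks. Transcript 5′ ends gave 49.3% of lone H3K27ac and 30.8% of co-marked H3K4me1 peaks near a start. Windows of 500 bp and 2500 bp gave 20.8% and 29.98% for the latter, and 2500 bp 48.4% for the former. Start sites with both marks numbered 929 on the first base and 3205 with the widest 50%. Those with H3K27ac only (main 62) numbered 925 at 500 bp, 19 at 2500 bp, 2964 on the first base and 382 with the widest 50%.

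Domains in clusters of 5 or more (main 16.1%) were 4.91% at 5 kb stitching, 10.5% for peaks of at least 500 bp and 7.89% for the widest 50%, and lone H3K27ac peaks standing alone (main 89.2%) 93.8%, 94.1% and 94.2%. CpG-rich shares of H3K27ac peaks without and with H3K4me1 (main 51.1% and 14.2%) were 54.8% and 16.04% in 600 bp windows and 12.46% and 3.81% over 1 kb from start sites. Counts of pluripotency, trophoblast and later lineage genes with both marks stayed within 1.5 times at 500 bp and 2500 bp. No paired analysis was possible because each mark has 1 list.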
